A study of Mus musculus with 10 samples.

Results

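S100 proteins are small calcium-binding proteins of the EF-hand type that mostly work as dimers. The 10 genes described here are S100a4, S100a6, S100a8, S100a9, S100a10, S100a11, S100a13, S100a14, S100a16 and S100g, which were taken by name from tables of 23364 genes. Both deposited tables list all 10. All but S100g lie on mouse chromosome 3, and S100g lies on chromosome X. RNA was sequenced from crypts shaken off the distal colon of mice in 3 groups: 3 libraries from untreated mice (control), 4 from mice given DSS (dextran sulfate sodium, which injures the colon lining), and 3 from mice given AOM (azoxymethane, a carcinogen) and afterwards DSS (written AOM_DSS, as GEO's treatment field orders the agents). The sources used here do not give strain, age, dose or time of sampling.

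S100a8 and S100a9 form calprotectin, which neutrophils carry in large amounts and which withholds zinc and manganese from microbes. Its release into the gut lumen is a standard sign of intestinal inflammation. Several other S100 proteins are made by epithelial cells: S100a10 binds annexin A2, S100a11 binds annexin A1, and S100a6 binds calcyclin-binding protein. S100g is calbindin-D9k, the carrier of calcium across the absorptive enterocyte, and S100a4 is abundant in fibroblasts and leukocytes.

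Values are normalized reads: whole reads per library, recovered from the deposited group means, divided by the library's size factor. Libraries are lettered by depth within their group, a being the deepest, since the labels' replicate numbers could not be matched to them. Recovered depth was 16352336 to 18113853 reads in the controls, 12067169 to 20903294 in DSS and 16152626 to 23550971 in AOM_DSS. Genes of the pan-epithelial list other than Lgals4, such as the keratin Krt8, were abundant in every group. Lgals4 had group means of 114 to 168 normalized reads. Of the 10 genes of the list, 0 passed the authors' test in either comparison. Libraries also differed in other cell types: the summed level of 9 T and NK cell genes was 3333 in DSS library a and 401 to 583 in the other DSS libraries, and that of 7 smooth muscle genes was 13772 in AOM_DSS library c and 1348 to 1402 in the other two. Of these lists the authors' test called 1 of 9 T and NK cell genes higher in each comparison (Gzmb, a granule protease, by 1.46 and 2.41 on the log2 scale, DESeq adjusted p = 0.0488 and 0.000401) and 0 of 7 smooth muscle and 0 of 6 endothelial genes. Of 8 squamous epithelial genes tested, 2 rose in both, Sprr1a and the keratin Krt13 (by 3.07 and 4.11, 0.0218 and 0.000188). The other 6 were not called, among them Lor, with log2 values of -2.19 and -2.56 (DESeq adjusted p = 0.244 and 0.137). Over all genes, 2.61% were called higher in DSS and 5.54% in AOM_DSS. Control library b held 2355 normalized reads of 10 fibroblast and matrix genes, against 569.8 and 661 in the other controls. In such bulk samples, fewer cells of a type and less RNA per cell cannot be told apart.

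The 250 bases before the start sites of S100a8 and S100a9 are shown because both genes move together below. They are RefSeq sequences of build GRCm38.p6, not of mm9, the build named by the submitters. S100a8 lies on the plus strand (chr3:90668821-90669070) and S100a9 on the minus strand (chr3:90695722-90695971). Capitals mark matches to the motifs searched.
S100a8: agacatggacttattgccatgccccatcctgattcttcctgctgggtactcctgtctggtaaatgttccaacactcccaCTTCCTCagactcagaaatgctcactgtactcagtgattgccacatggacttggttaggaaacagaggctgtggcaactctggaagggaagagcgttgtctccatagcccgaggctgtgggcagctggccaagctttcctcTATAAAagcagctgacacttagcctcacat
S100a9: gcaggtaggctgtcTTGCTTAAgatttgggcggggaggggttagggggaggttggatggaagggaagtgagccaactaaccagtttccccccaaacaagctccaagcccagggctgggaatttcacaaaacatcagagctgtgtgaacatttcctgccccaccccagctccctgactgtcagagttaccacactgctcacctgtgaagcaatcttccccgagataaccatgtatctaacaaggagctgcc

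Both strands were searched for 5 motifs. The first, TATAAA, is the box that positions the start of transcription. The core of PU.1, a factor of myeloid cells, was searched as GAGGAAG. The site of C/EBP, another such factor, was TTGCNNAA, the site of AP-1 was TGANTCA, and the site of STAT factors was TTCNNNGAA. No match overlaps another. S100a8 held TATAAA 30 to 25 bases before the start and GAGGAAG on the other strand 171 to 165 bases before it. S100a9 held TTGCNNAA 236 to 229 bases before the start. Among 32851 RefSeq promoters of the same window, 12.4% held TATAAA, 10.6% held GAGGAAG, 9.56% held TTGCNNAA, 6.75% held TGANTCA and 7.02% held TTCNNNGAA. These matches describe the letters and show no binding. Promoters were found for 8 of the 10 genes, all but S100a10 and S100a14.

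The comparison of DSS with control asks how the S100 genes stand in injured colon epithelium. S100a8, S100a9 and S100a14 rose in the authors' deposited table, so 3 of the 10 genes were called higher at an adjusted p under 0.05 (DESeq) and 0 lower, where 2.61% of all 18099 tested genes were called higher and 1.78% lower. The median log2 fold change of the 10 genes was 0.64, and that of all tested genes was 0.02. The libraries of the groups did not overlap for S100a8, S100a9, S100a11 and S100a14, 4 of the 10 genes, all higher in DSS, where 10.2% of genes lay wholly higher and 10.3% wholly lower. The second comparison uses the same control libraries. After AOM and DSS, S100a4, S100a8, S100a9 and S100a11 rose: 4 of 10 were called higher and 0 lower in the authors' deposited table, where 5.54% of 18334 tested genes were called higher and 3.35% lower. The median was 0.45 for the 10 genes and 0.04 for all tested genes. In 6 of the 10 genes every AOM_DSS library lay above every control library, where 20.7% of genes did so, and in 1 gene, S100a13, every one lay below, where 17.8% did so. The 10 genes were chosen with earlier results of these data known, and the 7 other S100 genes of the tables are not counted. The counts beside the shares of all genes are therefore a description and no test of the family.

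**Figure D1:**
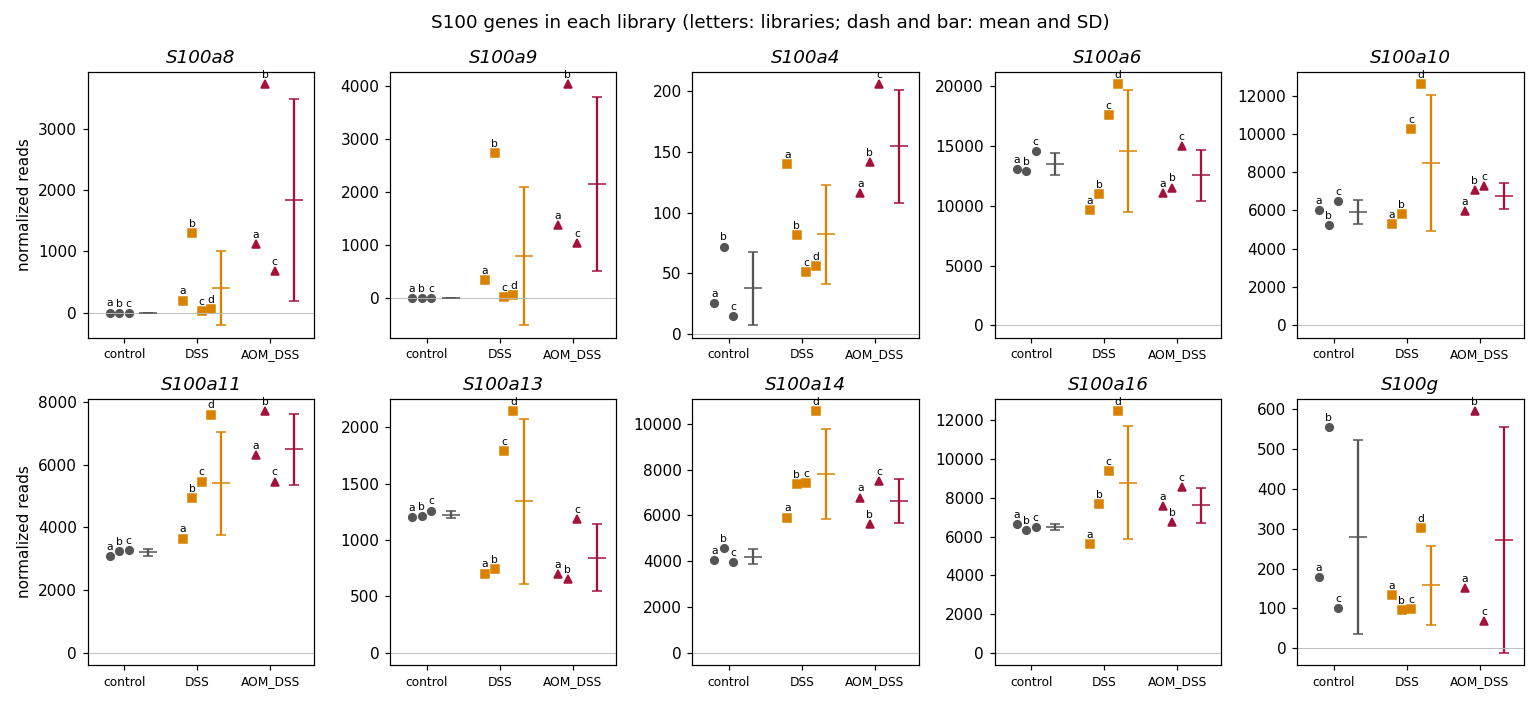
Normalized reads of the 10 S100 genes (vertical axis, from 0, a separate scale per gene) in each of 3 control, 4 DSS and 3 AOM_DSS libraries; letters name libraries, and the dash and bar give the group mean and SD. S100a8 and S100a9 sit near 0 in the controls and reach 3729.6 and 4036 in AOM_DSS library b, while S100a6 lies between 9633 and 20184 in all libraries.

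The calprotectin pair was nearly silent in the untreated crypts. S100a8 had 3, 2 and 0 reads in control libraries a, b and c, which is 2.9, 1.98 and 0 normalized reads. The 4 DSS libraries, from a to d, had 199, 1296, 29.7 and 62.0. It had 1119.9, 3729.6 and 679 in the AOM_DSS libraries. Each treated library therefore lay above each control, DSS library b lay within the AOM_DSS range, and the other DSS libraries lay below it. The authors' deposited table gives a log2 fold change of 7.93 for DSS (DESeq adjusted p = 0.0176) and of 10.15 for AOM_DSS (adjusted p = 0.00172).

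S100a9 had 0, 1 and 1 read in the control libraries, or 0, 0.988 and 1.06 normalized reads. It had 335, 2739.6, 17 and 52.7 in DSS and 1379, 4036 and 1025 in AOM_DSS. As for S100a8, library b was the highest of its group in both treatments and the groups of treated and control libraries did not overlap. The authors' log2 fold changes, from their deposited table, were 10.17 for DSS (DESeq adjusted p = 0.00125) and 11.62 for AOM_DSS (adjusted p = 0.000211). With only 2 control reads the size of this ratio is loosely fixed: from pooled reads it was 1483 for DSS, with a 95% counting interval (exact binomial) of 410.2 to 12247, and 3315 for AOM_DSS, with an interval of 917 to 27376. The pooled ratio of S100a8, on 5 control reads, was 295 for DSS (126 to 909) and 1147 for AOM_DSS (491 to 3534). These intervals cover counting error only.

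The spread within DSS was wide. The mean of S100a8 there was 397 ± 604 normalized reads (SD, n = 4) and that of S100a9 was 786 ± 1310.1, so the SD exceeded both means. Limma on log2(normalized reads + 1) gave log2 differences of 6.05 ± 1.16 (SE) for S100a8 in DSS (adjusted p = 0.0205) and 6.75 ± 1.47 for S100a9 (adjusted p = 0.0317). By limma, 3 of the 10 genes were called in DSS, where 5.9% of all genes were, and 5 of 10 in AOM_DSS, where 17.2% were. In limma, S100a8 lost its call without control library a (adjusted p = 0.0901) or c (0.117), fits in which 0.986% and 1.01% of all genes were called. S100a9 lost its call without control library a (0.156), b (0.0592) or c (0.132), or without DSS library a (0.0612), and with a pseudocount of 10 both were lost (0.0808 for S100a8 and 0.131 for S100a9). In AOM_DSS both genes stayed called in limma whichever library was left out, with adjusted p between 0.00129 and 0.0162 for S100a8 and between 0.00053 and 0.012 for S100a9.

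The ratio of S100a9 to S100a8 normalized reads also moved among libraries. It was 1.68, 2.11, 0.571 and 0.85 in DSS libraries a to d, and 1.23, 1.08 and 1.51 in AOM_DSS. S100a9 thus exceeded S100a8 in the 2 deeper DSS libraries and in every AOM_DSS library, and was below it in the 2 shallower ones. The ratios of the shallower libraries rest on 12 reads against 21 in c and 34 against 40 in d, so their direction is loosely fixed. Together the pair made up 0.0898% to 9.67% of the reads of the 10 genes in DSS and 3.63% to 16.2% in AOM_DSS, against at most 0.00868% in the controls.

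Some neutrophil genes rose in the same groups as the pair. Of the 23 genes of the neutrophil list, 21 were in the tables. The authors' test called 4 of 19 tested higher in DSS and 10 of 20 in AOM_DSS, with 0 lower, where 2.61% and 5.54% of all genes were called higher. The summed level of the 21 genes was 26.5 to 50.4 normalized reads in the controls, 199.7 to 3353 in DSS and 1597 to 7879 in AOM_DSS. Library b was the highest in DSS and in AOM_DSS, as it was for the pair. Csf3r, the receptor of granulocyte colony-stimulating factor, had 3.86, 9.88 and 1.06 normalized reads in the controls, 175, 748, 26.9 and 20.2 in DSS and 352, 518 and 229 in AOM_DSS. Its authors' log2 fold changes were 5.62 (DESeq adjusted p = 0.0233) and 6.21 (0.00977).

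Clec4d, a C-type lectin of myeloid cells, was called higher in both treatments (DESeq adjusted p = 0.00492 and 0.000529 in the authors' deposited tables). With 1 control read, its pooled ratio was 341 in DSS (95% counting interval 61.0 to 13517) and 837 in AOM_DSS (149.9 to 33111). Trem1, an amplifying receptor of neutrophils and monocytes, rose by 5.51 (0.0351) and 7.18 (0.00406), and lactoferrin (Ltf), an iron-binding granule protein, rose by 5.82 in AOM_DSS (0.00024). Ltf did not follow the pair within DSS: it had 220, 126, 126 and 163 normalized reads in libraries a to d. It made up 126 of the list's sum of 199.7 in DSS library c and 163 of 237 in d. The median log2 fold change of the list was 5.15 in DSS and 6.29 in AOM_DSS with genes at 0 in a group set to 3 reads over the group. These medians cover 15 of 19 tested genes in DSS and 19 of 20 in AOM_DSS. Genes at 0 in the controls and below that floor in the treated group were left out. In DSS these were Mpo, Camp, Stfa2 and BC100530, with means of at most 0.824, so the DSS median leaves out genes with hardly any reads. A gene at 0 in the controls could enter these medians only as a rise, so both medians lean upward by construction. Primary granule genes were at or near 0: Elane had no read in any library and Mpo at most 1 read per library. S100a9 per Csf3r was 1.91, 3.66, 0.632 and 2.62 in DSS and 3.91, 7.80 and 4.48 in AOM_DSS, so the pair was not in a fixed ratio to this marker. The values of DSS libraries c and d rest on only 12 and 34 reads of S100a9. The part of neutrophils in the rise of S100a8 and S100a9 was not tested.

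**Figure D2:**
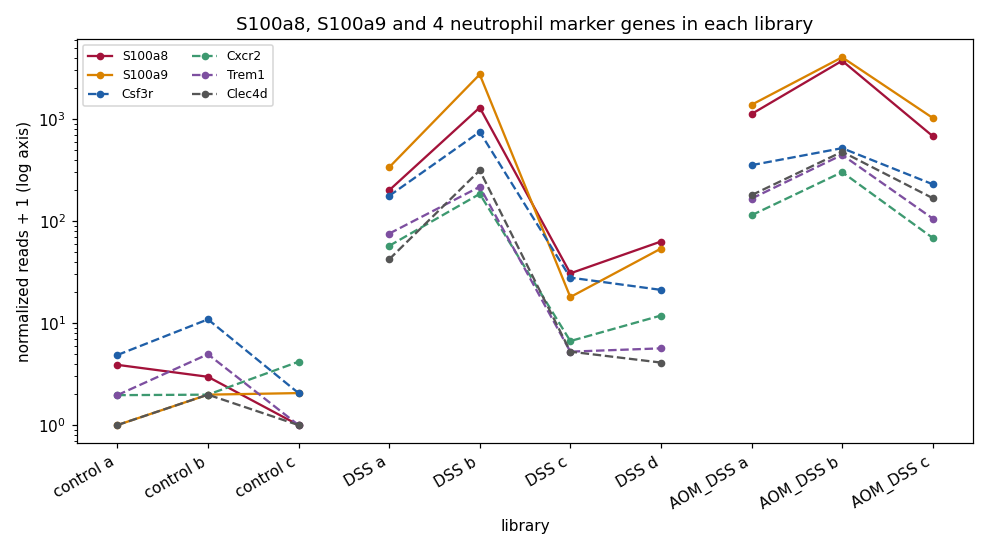
Normalized reads plus 1 on a log axis (vertical) for S100a8 and S100a9 (solid lines) and the neutrophil marker genes Csf3r, Cxcr2, Trem1 and Clec4d (dashed) in each library (horizontal; lines join libraries of 1 group only for reading). All 6 genes are lowest in the controls, low in DSS libraries c and d, and high in DSS library b and AOM_DSS library b.

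S100a4 rose after AOM and DSS. It had 26.1, 72.1 and 14.8 normalized reads in the controls, 139.9, 81.6, 51.0 and 55.8 in DSS, and 116, 141 and 205 in AOM_DSS. Every AOM_DSS library exceeded every control, whereas 2 of the 4 DSS libraries lay below control library b. The authors' deposited table gives a log2 fold change of 2.03 for AOM_DSS (DESeq adjusted p = 0.00698) and 1.12 for DSS (0.209). Limma gave 2.26 ± 0.56 (SE) for AOM_DSS (adjusted p = 0.0322). In limma this call was lost without control library a (0.126) or c (0.0989), and without AOM_DSS library a (0.0882), b (0.0844) or c (0.069).

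Cell types known for S100a4 differed among the same libraries. The 10 fibroblast and matrix genes summed to 569.8 to 2355 normalized reads in the controls, 745 to 2229.8 in DSS and 3844 to 5424 in AOM_DSS. Vim alone made up 65.4% and 74.6% of the sum in AOM_DSS libraries a and b. Without Vim the sums were 467 to 1914 in the controls, 552 to 1345 in DSS and 1332 to 3555 in AOM_DSS, so the groups overlapped, and Thy1, which T cells also express, gave 901 of the sum in DSS library a. By the authors' test 2 of the 10 genes rose in AOM_DSS, where 5.54% of all genes were called higher. These were Vim, an intermediate filament, by 3.52 on the log2 scale (DESeq adjusted p = 0.0411), and Fbln1, a matrix protein, by 3.02 (0.00603). Pdgfrb, a pericyte receptor, fell by 1.33 there (0.000283) and by 1.10 in DSS (0.00619). The 13 monocyte and macrophage genes summed to 1855 to 3327 in the controls, 3457 to 4845 in DSS and 7853 to 26320 in AOM_DSS, with every AOM_DSS library above every other library. Lyz1, in mice the lysozyme of Paneth cells, made up 53.6% and 60.5% of the sum in AOM_DSS libraries a and b. Without Lyz1 the sums were 1821 to 3080.3 in the controls, 3372 to 4692 in DSS and 5510.5 to 10408 in AOM_DSS. By the authors' test 8 of the 13 genes, Lyz1 among them, rose in AOM_DSS, where 5.54% of all genes did, against 2.61% in DSS. Mrc1, the mannose receptor of macrophages, rose by 2.16 there (DESeq adjusted p = 2.4e-06), and 1 of 13 rose in DSS, Cd14. Within AOM_DSS, S100a4 was highest in library c (205), where the monocyte and macrophage sum was lowest (7853) and the fibroblast sum without Vim highest (3555). Control library b was the highest of its group for S100a4 and for both lists. DSS library a had the highest S100a4 of DSS (139.9). The 9 T and NK cell genes summed to 3333 there and to 401 to 583 in the other DSS libraries. The part of these cells in S100a4 was not tested.

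S100a11 and S100a14 were the members grouped here as epithelial that had higher calls. Which cells carried their reads was not tested. S100a11 had 3089.6, 3238 and 3289 normalized reads in the controls. It had 3648, 4931, 5468 and 7608 in DSS and 6306, 7715 and 5467 in AOM_DSS. Both treated groups lay wholly above the controls, whose values were close together. S100a11 rose 2.03-fold after AOM and DSS in the authors' deposited table (DESeq adjusted p = 0.00818), and its log2 fold change in DSS was 0.76 (0.212). Limma gave 1.00 ± 0.13 (SE) for AOM_DSS (adjusted p = 0.00486) and kept the call whichever library was left out (adjusted p between 0.00388 and 0.0386). In DSS limma did not call it (0.71, adjusted p = 0.0988), but did so without DSS library a (0.88, 0.0271). S100a11 has a pseudogene, S100a11-ps in RefSeq, that is not among the tables' rows, and reads shared with it could count toward S100a11.

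S100a14 had 4059.9, 4559.7 and 3977 normalized reads in the controls. It had 5904, 7373, 7406 and 10549 in DSS and 6779, 5611 and 7512 in AOM_DSS. All treated libraries lay above all controls. The authors' table called it higher in DSS only (deposited log2 fold change 0.89, DESeq adjusted p = 0.0276); for AOM_DSS the log2 value was 0.66 (0.109). Limma called both, with 0.87 ± 0.19 (SE) in DSS (adjusted p = 0.0318) and 0.65 ± 0.13 in AOM_DSS (0.0169). In DSS the limma call was lost without control library a (0.16), b (0.0504) or c (0.153) or without DSS library b (0.064) or c (0.0548). In AOM_DSS it was lost without control library a (0.0898) or c (0.0765) or without AOM_DSS library a (0.0761). Whether the DSS and AOM_DSS effects differ is covered below.

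The remaining epithelial members, S100a6, S100a10, S100a13 and S100a16, were not called in either comparison by the authors' test. S100a6, the most abundant member per kilobase, had 13084, 12885 and 14574 normalized reads in the controls, 9633, 10988, 17566 and 20184 in DSS and 11089, 11528 and 15021 in AOM_DSS. S100a10 had 5247 to 6499 in the controls, 5275 to 12604 in DSS and 5985 to 7254 in AOM_DSS. S100a16 had 6345 to 6634, 5598 to 12472 and 6740.4 to 8551 in these groups. DSS libraries c and d lay above the control range for all 3 genes. Library a lay below it for S100a6 and S100a16 and inside it for S100a10. The authors' log2 fold changes in the deposited tables were 0.11, 0.52 and 0.43 for DSS (DESeq adjusted p = 1, 0.874 and 0.801) and -0.11, 0.19 and 0.23 for AOM_DSS, with no call.

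S100a13, which is tied to the release of growth factors from cells, had 1201, 1215 and 1262 normalized reads in the controls, 703, 742, 1789 and 2144 in DSS, and 695, 655 and 1183 in AOM_DSS. Its DSS libraries fell on both sides of the controls, and all AOM_DSS libraries fell below them. The authors' deposited log2 fold change was 0.13 in DSS (DESeq adjusted p = 1) and -0.54 in AOM_DSS (0.677). By limma the AOM_DSS difference was -0.59 ± 0.21 (SE), with an adjusted p of 0.0922, and it was called without AOM_DSS library c (-0.86, 0.00412). S100a1, a neighbour that overlaps the S100a13 gene on the opposite strand without sharing exon bases in GENCODE M21, is not among the 10 genes and had a log2 fold change of -0.54 in AOM_DSS (0.169). The libraries do not record strand.

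The DSS group was split for these genes. The deeper libraries a and b had size factors of 1.265 and 1.214, against 0.706 and 0.645 for c and d. The shallower libraries had more S100a13 by 2.72 times, more S100a10 by 2.06 times, more S100a6 by 1.83 times, and more S100a16 by 1.65 times (sums of normalized reads). The pan-epithelial list was split the same way: its 6 genes recovered in all libraries summed to 62502 and 65721 in a and b and to 101147 and 113785 in c and d, 1.68 times more, and the part of this was not tested. For S100a8 and S100a9 the order was the opposite, with 16.3 and 44.1 times more in a and b. Library b carried much of this, and library a alone had 4.34 and 9.61 times the mean of c and d. Genes with transcripts no longer than 1127 nt, the longest among the members, had a median log2 difference of 0.54 in favour of c and d (710 genes with a mean of at least 50), where all 11830 such genes had -0.02. Over genes, the deviation of a library from the mean of all libraries correlated with transcript length at a rho of 0.433 and 0.324 in the 2 deeper DSS libraries and of -0.360 and -0.390 in the shallower ones, and with GC content at -0.324, -0.325, 0.358 and 0.371; genes are not independent replicates. Such correlations were not confined to DSS. With length, rho was -0.212, 0.065 and -0.265 in control libraries a to c and 0.236, 0.262 and -0.072 in AOM_DSS libraries a to c. With GC content it was 0.180, -0.042 and 0.155 in the controls and -0.240, -0.186 and -0.167 in AOM_DSS. The part of these correlations in the S100 differences of any comparison was not tested.

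Limma fits that kept only 1 pair of DSS libraries were added after these values were seen. Without a and b, 8 of the 10 genes were called, where 11.7% of all genes were, and without c and d 4 were called, where 14.2% were. Each such fit keeps 2 libraries that resemble each other, so its calls restate the split and are no further support. The log2 difference of S100a13 from the control was 0.68 without a and b and -0.76 without c and d. That of S100a14 was 1.08 and 0.65, that of S100a8 4.28 and 7.81, and that of S100a9 4.28 and 9.23.

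**Figure D3:**
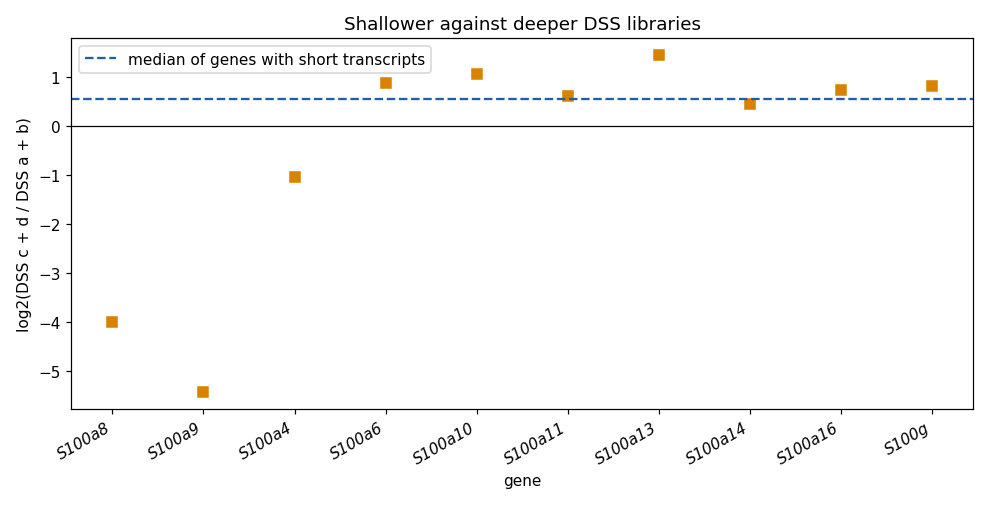
Log2 ratio of summed normalized reads in DSS libraries c and d over a and b (vertical; 2 added to both sums) for the 10 genes; the dashed line is the median of 710 genes with transcripts no longer than 1127 nt, 0.54. S100a8, S100a9 and S100a4 lie below 0 and the other 7 genes above it.

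S100g, calbindin-D9k, varied widely inside each group and was not called. It had 178, 556 and 102 normalized reads in the controls, 133, 95.6, 99.1 and 302 in DSS, and 152, 595 and 68.5 in AOM_DSS. Control library b and AOM_DSS library b were several times their group's other libraries, and all groups overlapped. The authors' log2 fold changes were -0.82 for DSS (DESeq adjusted p = 0.893) and -0.04 for AOM_DSS (1). Its gene span overlaps Ctps2 on the opposite strand, without shared exon bases in GENCODE M21, and Ctps2 had group means of 602 to 662. Of the 11 genes of calcium absorption, 1 of 10 tested fell in DSS and 1 of 11 in AOM_DSS: the vitamin D receptor Vdr, a regulator of calbindin, fell by 0.65 (0.0376) and 1.06 (6.55e-05). Over all genes, 1.78% were called lower in DSS and 3.35% in AOM_DSS. The list's median, with genes at 0 handled as for the neutrophil list, was 0.009 in DSS (8 genes) and -0.14 in AOM_DSS (9 genes).

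The partners of S100 proteins showed a mixed picture. Of the 12 annexins, 0 of 11 tested were called in DSS by the authors' DESeq test, where 4.39% of all genes were, and in AOM_DSS 2 of 12 rose and 2 fell, where 8.89% were called. Anxa1, the partner of S100a11, rose by 1.11 on the log2 scale (0.0207), with 3370.4 to 3782 normalized reads in the controls and 5160.3 to 10493 in AOM_DSS. Anxa5, a phosphatidylserine binder, rose by 0.81 (0.00523), whereas Anxa13, an annexin of the intestinal epithelium, fell by 2.10 (0.000657) and Anxa11 by 0.57 (0.0495). Anxa2, the partner of S100a10, had values of 0.43 in DSS (0.723) and 0.58 in AOM_DSS (0.188), with no call. The median log2 fold change of the annexins was 0.23 in DSS and 0.51 in AOM_DSS.

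Of 11 receptors and binding proteins, Cd14, a co-receptor of TLR4, rose in DSS by 0.91 (DESeq adjusted p = 0.00817). In AOM_DSS 4 of 11 rose: Cd14 by 1.26 (4.79e-05), Mcam, an adhesion receptor, by 2.65 (0.00773), Tlr4, a receptor of calprotectin, by 0.69 (0.0372), and Cd36, a scavenger receptor, by 2.64 (0.0388). Cd14 had 1132 to 1291 normalized reads in the controls, 1874 to 3008 in DSS and 2202 to 3419 in AOM_DSS. Ager, which encodes the RAGE receptor, had 40.2 to 64.2 normalized reads in the controls and was not called (0.81 in DSS, 0.783, and 0.21 in AOM_DSS, 1). None of the 8 other S100 targets, such as Ahnak and Myh9, was called in either comparison. The medians of the receptors were 0.45 and 0.69. Over all genes, 2.61% were called higher in DSS and 5.54% in AOM_DSS.

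Other antimicrobial and acute defence genes showed higher calls, 2 of 12 in DSS and 7 of 12 in AOM_DSS, with 0 lower. For this list and the next, the shares of all genes called higher were 2.61% in DSS and 5.54% in AOM_DSS. Slpi, a protease inhibitor of secretions, had a log2 fold change of 3.66 in DSS (DESeq adjusted p = 2.43e-15) and 3.75 in AOM_DSS (9.77e-15). Reg3g, a lectin that binds bacteria, rose by 6.08 (0.00932) and 8.21 (0.000211), and the list's median was 3.52 and 4.44. Of the epidermal differentiation complex, the chromosome 3 cluster that holds S100 genes, 1 of 11 tested rose in DSS and 2 of 12 in AOM_DSS: Sprr1a, a cornified envelope protein, by 2.83 (0.0197) and 2.71 (0.00947), and Sprr2h by 4.48 (0.0211) in AOM_DSS.

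Per kilobase of the longest coding transcript, S100a6 led in every group: 18487 ± 1262 normalized reads per kilobase (SD, n = 3) in the controls, 19963 ± 6962 in DSS and 17163 ± 2948 in AOM_DSS. The order in the controls was S100a6, S100a10, S100a11, S100a16, S100a14, S100a13, S100g, S100a4, S100a8 and S100a9, and every library of each gene lay above every library of the next except for the last pair. In AOM_DSS, S100a11 (12712 ± 2222) lay above S100a10 (9881 ± 999.6), with no overlap between their libraries, and S100a9 (4137 ± 3171) and S100a8 (3792 ± 3392) came after S100a14 (6264 ± 906), all 3 overlapping in part. In DSS the only neighbours whose libraries did not overlap were S100a14 and S100a13.

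**Figure D4:**
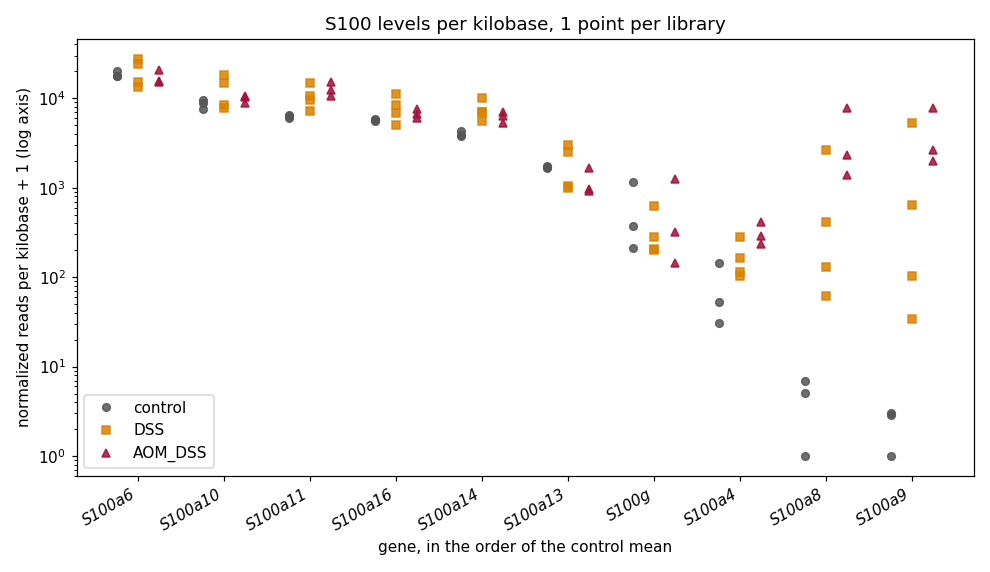
Normalized reads per kilobase plus 1 on a log axis (vertical) for the 10 genes in order of their control mean (horizontal), 1 point per library, for control, DSS and AOM_DSS. S100a6 leads in all groups, and S100a8 and S100a9 move from the lowest places in the controls, at 3.34 and 1.31, to 3792 and 4137 in AOM_DSS.

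The comparison of AOM_DSS with DSS has no authors' table, so limma was used on the recovered reads. None of the 10 genes was called, where 1.72% of 18308 genes tested were (Benjamini-Hochberg adjusted p under 0.05). At an unadjusted p under 0.05, 3 of 10 passed in limma, where 12.6% of all genes did. S100a8 had a log2 difference of 3.24 ± 1.15 (SE), with a limma adjusted p of 0.279, S100a9 of 3.37 ± 1.47 (0.393) and S100a4 of 0.98 ± 0.39 (0.345). The remaining members had differences between -0.55 and 0.39. S100a14 differed by -0.21 ± 0.20 (adjusted p = 0.706), so the difference between its calls above was not shown. The libraries of the 2 treatments overlapped for all 10 genes, where 7.94% of genes lay wholly higher in AOM_DSS and 3.62% wholly lower.

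The same added fits gave 5 of the 10 genes called without DSS libraries a and b, where 11.8% of all genes were called, and 0 of 10 without c and d, where 0.269% were. Without a and b, S100a8, S100a9 and S100a4 were called higher in AOM_DSS (log2 differences 5.01, 5.85 and 1.47). S100a10 and S100a13 were called lower (-0.75 and -1.27). Libraries c and d hold the lower S100a8, S100a9 and S100a4 values of DSS and its higher S100a10 and S100a13 values. Keeping only c and d therefore widens each of these differences by construction, and these calls are no support for a difference between the treatments.

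**Figure D5:**
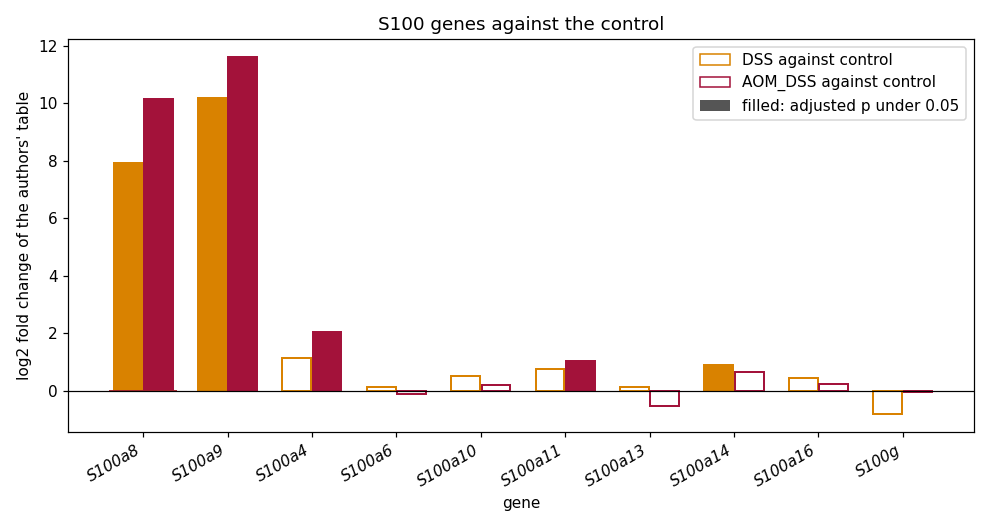
Log2 fold change of the authors' deposited tables (vertical) for the 10 genes in DSS against control and AOM_DSS against control; filled bars have an adjusted p under 0.05. S100a8 and S100a9 exceed 7 in both, and the remaining genes lie between -0.82 and 2.03.

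The genes whose log2(normalized reads + 1) followed each member most closely over the 10 libraries, among 11830 genes with a mean of at least 50, are given by Pearson r as a description; libraries share depth and cell content. For S100a8 they were Cxcl2, a neutrophil chemokine (0.991), Bzw1 (0.985) and S100a9 (0.983). For S100a9 they were Hdc, which makes histamine, Cxcr2 (0.987) and Clec4e (0.983). S100a4 was closest to Atp2b4 (0.988), Lgals1 (0.973) and Itgax (0.966). S100a13 was closest to Lgals3 (0.992), S100a6 to BC031181 (0.987), S100a10 to Stk25 (0.982), S100a11 to Itgb6 (0.976), S100a14 to Plek2 (0.964) and S100a16 to Dbndd2 (0.960). S100g had no close companion, the highest r being 0.818 with Por. Among the epithelial members, S100a8 had an r of 0.73 with S100a11, 0.58 with S100a14, 0.15 with S100a16 and 0.02 with S100a10. Its r was -0.37 with S100a6 and -0.59 with S100a13.

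The tables list 7 other S100 genes. S100a1 had group means of 2589, 2312 and 1784 normalized reads in control, DSS and AOM_DSS. S100a2, S100a3, S100a5, S100a7a, S100b and S100z each had group means under 6, with at most 9 reads in a library, and none was called in either comparison by the authors' test.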

How the data were processed

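The deposited tables set DSS and AOM_DSS against the control. Their signal columns hold group means of read counts divided by library size factors, per the file headers. The fold (a ratio) and its log2 value compare those means, and p-values come from the authors' DESeq test with Benjamini-Hochberg adjustment, per the file headers. TopHat2 2.0 mapped the reads to mm9, according to the submitters' processing notes. Extraction used EDTA shaking and a TruSeq kit that does not record strand, per the labels' protocols. The sources used here give neither the read counter nor the gene annotation.

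Each library's whole reads were worked out from the printed means (15 digits) as the single combination that gives them; for 3259 DSS genes the authors' printed p-values, recomputed by their method, chose among combinations. Reads were recovered for 99.9%, 99.7% and 99.9% of 23364 genes in control, DSS and AOM_DSS. The recomputation gave the authors' AOM_DSS p-value for 100.00% of 18262 genes (relative tolerance 1e-06). For the 3259 DSS genes this match is no check, since AOM_DSS p-values helped to choose their DSS reads. The dispersion curve of the test (spread against mean) was also fitted to AOM_DSS p-values, those of 1063 genes. The recovery and limma were tested on simulated data. The header of one table names 4 AOM replicates, while the labels list 3.

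The authors' adjusted p under 0.05 decided calls against control, and limma 3.58.1 (R 4.3.3, trend, log2(normalized reads + 1)) was used between treatments and as an alternative. All genes were fitted and adjusted together. Transcript lengths are GENCODE M21; promoters are RefSeq GRCm38.p6. Named genes were all 10 members, up to 3 called members per list (or the 2 most abundant), and the 3 closest genes per member. Ager, Anxa11, Cd36, Elane, Mpo and Ctps2 were chosen after their values were seen. Members and lists were chosen with earlier results of these data known. No label says whether the libraries stem from different animals; the p-values therefore reflect spread among these libraries alone, which may be technical. Intervals are exact binomial at 95%. Calculations used Python 3.11.15, numpy 2.4.6 and scipy 1.17.1.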

Additional observations from a re-analysis of the deposited data

Results flagged for a closer look

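In DSS, 2 of the 10 genes had a single library far from the other 3. The gap to the nearest library, as a share of the range, was above Dixon's 95% critical value. For normally spread values chance flags about 1 in 20 groups. That rate may be higher here, since untransformed reads were used, which ran from 29.7 to 1296 for S100a8. Log values were not tested this way. S100a8 was at 1296 normalized reads in DSS library b, and its gap to the next library made up 0.866 of the range. S100a9 was at 2739.6 in the same library, with a ratio of 0.883. Without that library, limma still called both genes higher in DSS. The neutrophil list was also highest in DSS library b, at 3353 normalized reads against 199.7 to 919 in the other DSS libraries, and its part in the values was not tested.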

How the results depend on the processing

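No paired analysis was possible because the deposited tables hold group means, and no recovered library could be matched to a label's replicate number. The number of the 10 genes called in DSS against control was 3; it was 1 at an adjusted p under 0.01 (2.55% of all genes) and 1 with limma at a pseudocount of 10 (5.61%), and 0 to 3 in limma with 1 library left out at a time. The fits with 0, without control a or c, called 0.986% and 1.01% of all genes, against 5.9% with all libraries. With libraries a and b of DSS left out, an alternative chosen after their values were seen and no support by itself, it was 8. In AOM_DSS against control the number was 4, and 3 to 5 with 1 library left out (2.91% to 24% of all genes). Between the treatments it was 0, 0 in every leave-one-out fit, and 5 without DSS libraries a and b, likewise chosen afterwards. The log2 fold of S100a13 in DSS was 0.13 and turned to -0.04 with limma and to -0.04 with its pseudocount of 10; it ran from -0.33 to 0.21 with 1 library left out, with -0.06, -0.05 and -0.02 without control a, b and c, and -0.24 without DSS c. S100a6 in DSS ran from -0.13 to 0.22, with -0.07 without DSS c. S100g ran from -1.16 to 0.06 in DSS, from -1.07 to 0.47 in AOM_DSS (0.45 without control b) and from -0.45 to 1.10 between the treatments. Between the treatments, S100a6 ran from -0.34 to 0.02 and S100a16 from -0.35 to 0.04. The cause was not tested. Recentring on the median gene changed no direction and no call. The 2 and 5 control reads behind S100a9 and S100a8 limit how well their fold changes are fixed.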
